A study of Mus musculus with 6 samples.

Results

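The clustered histone genes are the replication-dependent histone genes whose symbols in the count file begin with Hist1h, Hist2h, Hist3h or Hist4h, and this rule chose 68 of 23337 genes. By class, 6 encode the linker histone H1, 18 encode H2A, 19 stand under H2B (1 of them, Hist3h2bb-ps, is named as a pseudogene), 12 encode H3 and 13 encode H4. The Hist1 cluster on chromosome 13 holds 54 of them, the Hist2 cluster on chromosome 3 holds 10, the Hist3 cluster on chromosome 11 holds 3 and Hist4 on chromosome 6 holds 1 (build mm10).

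RNA was sequenced in bulk from mouse leukaemia initiating cells (LICs), the cells of a leukaemia that can start it anew, sorted from adult leukaemia in 3 libraries (replicates 1, 2 and 4) and from neonatal leukaemia in 3 libraries (replicates 4, 7 and 8). The series asks which transcripts differ between these ages. The source of all 6 libraries is labelled as haematopoietic stem and progenitor cells, and the labels name no leukaemia driver, strain, sex or sorting marker. Nor do they tie replicates to separate animals. The spread behind every p-value is therefore that among these 6 libraries and may be technical.

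Histones H2A, H2B, H3 and H4 form the protein core around which DNA is wound, and H1 binds the DNA between cores. Proliferating cells make most of their histone protein in S phase from intronless genes in clusters, and the mRNAs of these genes mostly end in a conserved stem-loop in place of a polyA tail. The stem-loop binding protein, encoded by Slbp, holds that loop during 3′ end processing, translation and decay. All libraries here were made from polyA-selected RNA, so a clustered histone count measures what such a selection kept, such as polyadenylated forms or carried-over RNA, and which of these it was cannot be read from the counts.

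The stem-loop is the feature that sets these mRNAs apart, and it was searched for along whole GENCODE vM21 transcripts (GRCm38). Of 67 clustered genes with a coding sequence there, 54 had bases annotated after the stop codon, and 46 of those 54 held a fully paired stem-loop, in each case after the stop codon. The same search found a loop in 6 of 21810 other protein-coding gene symbols (0.0275%). Below are the loops of abundant members of 4 classes, 5′ to 3′, with 5 flanking bases on each side and the 16-base stem-loop in capitals.
Hist1h1c: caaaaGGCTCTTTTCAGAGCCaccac
Hist1h2ag: acaaaGGCTCTTTTCAGAGCCaccta
Hist1h2bk: ccaaaGGCTCTTTTAAGAGCCactaa
Hist1h4d: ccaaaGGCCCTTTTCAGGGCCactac
Hist1h4i: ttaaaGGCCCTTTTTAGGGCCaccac
Hist1h4b: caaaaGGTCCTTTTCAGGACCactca

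The form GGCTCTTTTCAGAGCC was the most frequent, in 26 genes of the H1, H2A, H2B and H3 classes. The form GGCCCTTTTCAGGGCC was in 7 genes, all of H4. Of the 46 genes with a loop, 14 had AATAAA, the canonical polyadenylation hexamer, further along the annotated transcript.

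Within H2A, H2B, H3 and H4 many genes have nearly the same coding sequence, which decides what a row of the count table can mean. Each coding sequence was cut into windows of 75 bases, the length of a read. The median share of windows that also stood in another clustered histone gene was 78.1% for H2A, 74.0% for H3, 69.5% for H2B, 64.3% for H4 and 8.76% for H1. The windows below were each shared by the largest number of genes in their class.
H2A (13 of 18 genes; bases 205 to 279 of the Hist1h2ab coding sequence): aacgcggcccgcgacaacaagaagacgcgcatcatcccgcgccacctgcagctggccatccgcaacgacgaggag
H2B (13 of 18 genes; bases 256 to 330 of the Hist1h2ba coding sequence): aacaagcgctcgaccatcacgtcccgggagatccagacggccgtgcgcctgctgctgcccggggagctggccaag

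A read from either window could have come from any of those genes, and the authors' counting took 1 primary alignment per read. Values of single members with shared windows are therefore uncertain as to copy. By sequence, 12 H2A genes had at least 50% of windows within 2 mismatches of at least 8 other genes. The 10 of these that overlap no other gene of the file are described below as the near-identical H2A genes. The other two, Hist1h2ao and Hist1h2ap, overlap other genes and had few or no counts. The group was defined from sequence alone, but after the values had been seen. Some genes also lay on top of other entries of the annotation, where reads overlapping more than 1 gene were not counted. Hist1h2ap, Hist2h2aa2, Hist1h2bq and Hist1h2br had no exon base free of another entry and no counts, and Hist1h1t, the testis linker histone, had none either. The remaining 63 members had counts.

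Library totals were between 60113466 and 66132051 counts in 5 libraries and 3932833 in neonatal replicate 4, 16.2 times fewer than the mean of the others. Levels are given as CPM, counts relative to library size. A gene without counts could be as high as 0.763 CPM in neonatal replicate 4, whereas the limit was 0.0454 to 0.0499 CPM elsewhere (3 counts on the library total, counting error only). Neonatal replicate 4 also stood apart by gene length. Its level over the mean of neonatal replicates 7 and 8 had a median log2 ratio of 1.26 for genes under 700 exon bases, -0.22 for longer genes and 1.53 for the tested histone members, of which the median exon length over all 68 was 479 bases. The share of all counts on histone members was 0.276% to 0.343% in the adult libraries, 0.473% in neonatal replicate 4, and 0.159% and 0.195% in neonatal replicates 7 and 8. Of the 63 members with counts, 61 were highest in neonatal replicate 4, as were 25.9% of all genes tested. The main results below are therefore given with and without this library.

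Summed per class, H2A took by far the most counts. H2A sums were 2484, 2697 and 2244 CPM in adult replicates 1, 2 and 4, and 4417, 1097 and 1423 CPM in neonatal replicates 4, 7 and 8. The adult libraries lay close together, while neonatal replicate 4 was above all of them and neonatal replicates 7 and 8 were below all of them. The group means of 2475 ± 227 and 2312 ± 1830 CPM (SD, n = 3 each) differed by less than the neonatal spread.

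H4 sums followed the same order, at 176, 191 and 141 CPM in the adult and 364, 90.4 and 117 CPM in the neonatal libraries. This order rested on Hist1h4d, since the other 12 H4 genes summed to 50.3, 65.0 and 45.8 CPM against 154, 38.1 and 56.2 CPM, which overlapped with or without neonatal replicate 4. H1 sums were 235, 253 and 192 CPM against 381, 146 and 179 CPM, again with neonatal replicates 7 and 8 below every adult library. H2B sums did not follow it: they were 52.9, 121 and 62.4 CPM in the adult and 238, 86.7 and 141 CPM in the neonatal libraries, and the groups overlapped with or without neonatal replicate 4. H3 sums, at 35.6, 66.6 and 35.8 CPM against 154, 34.6 and 49.1 CPM, also overlapped.

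**Figure D1:**
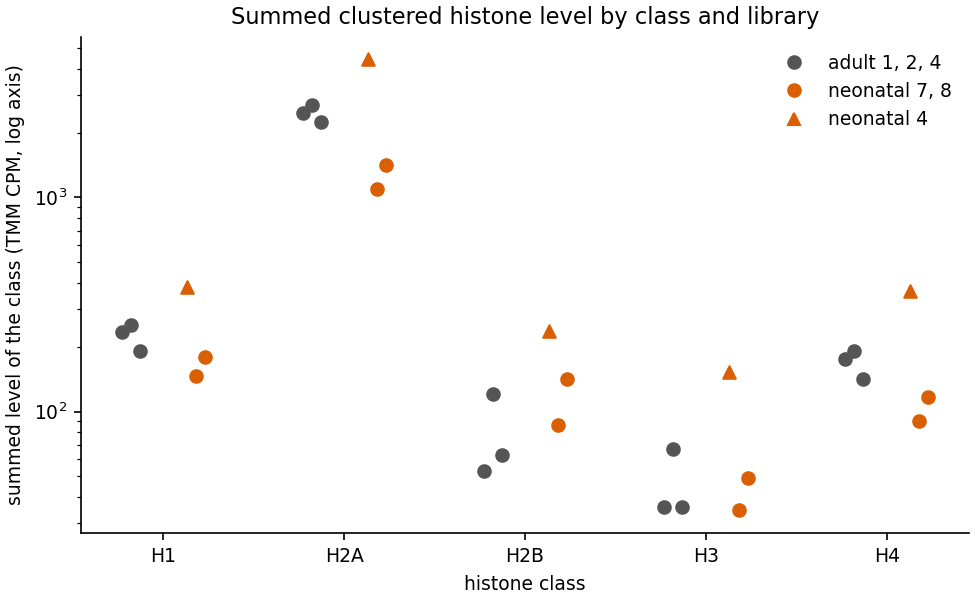
Summed level of each histone class (x axis) in each library, in CPM after TMM scaling on a log axis. Grey circles are adult libraries, orange circles neonatal replicates 7 and 8, and the orange triangle neonatal replicate 4, which was highest in all 5 classes. In H1, H2A and H4 the orange circles lie below every grey one; in H2B and H3 they do not.

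In the edgeR quasi-likelihood fit of all 6 libraries, 61 of the 68 members passed the filter on low counts and 0 of 61 were called at an adjusted p of 0.05, beside 0.0527% of all 13272 genes tested (0.0151% higher and 0.0377% lower). No member had an unadjusted p under 0.05, beside 11.9% of all genes, and DESeq2 and limma voom called 0 members too. The lowest adjusted p was 0.427 by edgeR, for Hist1h2bc. Fitted log2 fold changes, neonatal minus adult, were above 0 in 46 of 61 members, with a median of 0.62 beside 0.05 over all genes. Members that share windows are not separate results in this count.

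Without neonatal replicate 4, edgeR called 11 of 61 members lower in neonatal LICs (18%), beside 2.25% of all 13856 genes tested, and 0 higher, beside 3.72% (5.98% in either direction). The 11 were the 10 near-identical H2A genes and Hist1h4d. Because those 10 share reads, they are not 10 separate results. Genes under 700 exon bases were called lower in 5.01% of cases, and their median log2 fold change was -0.44 against -0.02 for longer genes. Length therefore moved with the histone result. With offsets that took each library's trend on exon length out, only Hist1h2ac was still called among the members (log2 fold change -1.20, edgeR adjusted p = 0.0444). In that fit Hist1h2ad, Hist1h2ah and Hist1h2ai were at -0.44 and Hist1h2ae at -0.85. The offset depends on annotated exon length, 2493 bases for Hist1h2ac and 393 for Hist1h2ad, although these genes share reads. The remaining call therefore cannot be read as particular to Hist1h2ac. The 11 calls had edgeR adjusted p-values between 0.0389 and 0.0499. None was called when adult replicate 1 or 2, or neonatal replicate 7 or 8, was also left out, although the log2 fold changes of the 10 H2A genes in those fits were still between -1.32 and -0.73.

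**Figure D2:**
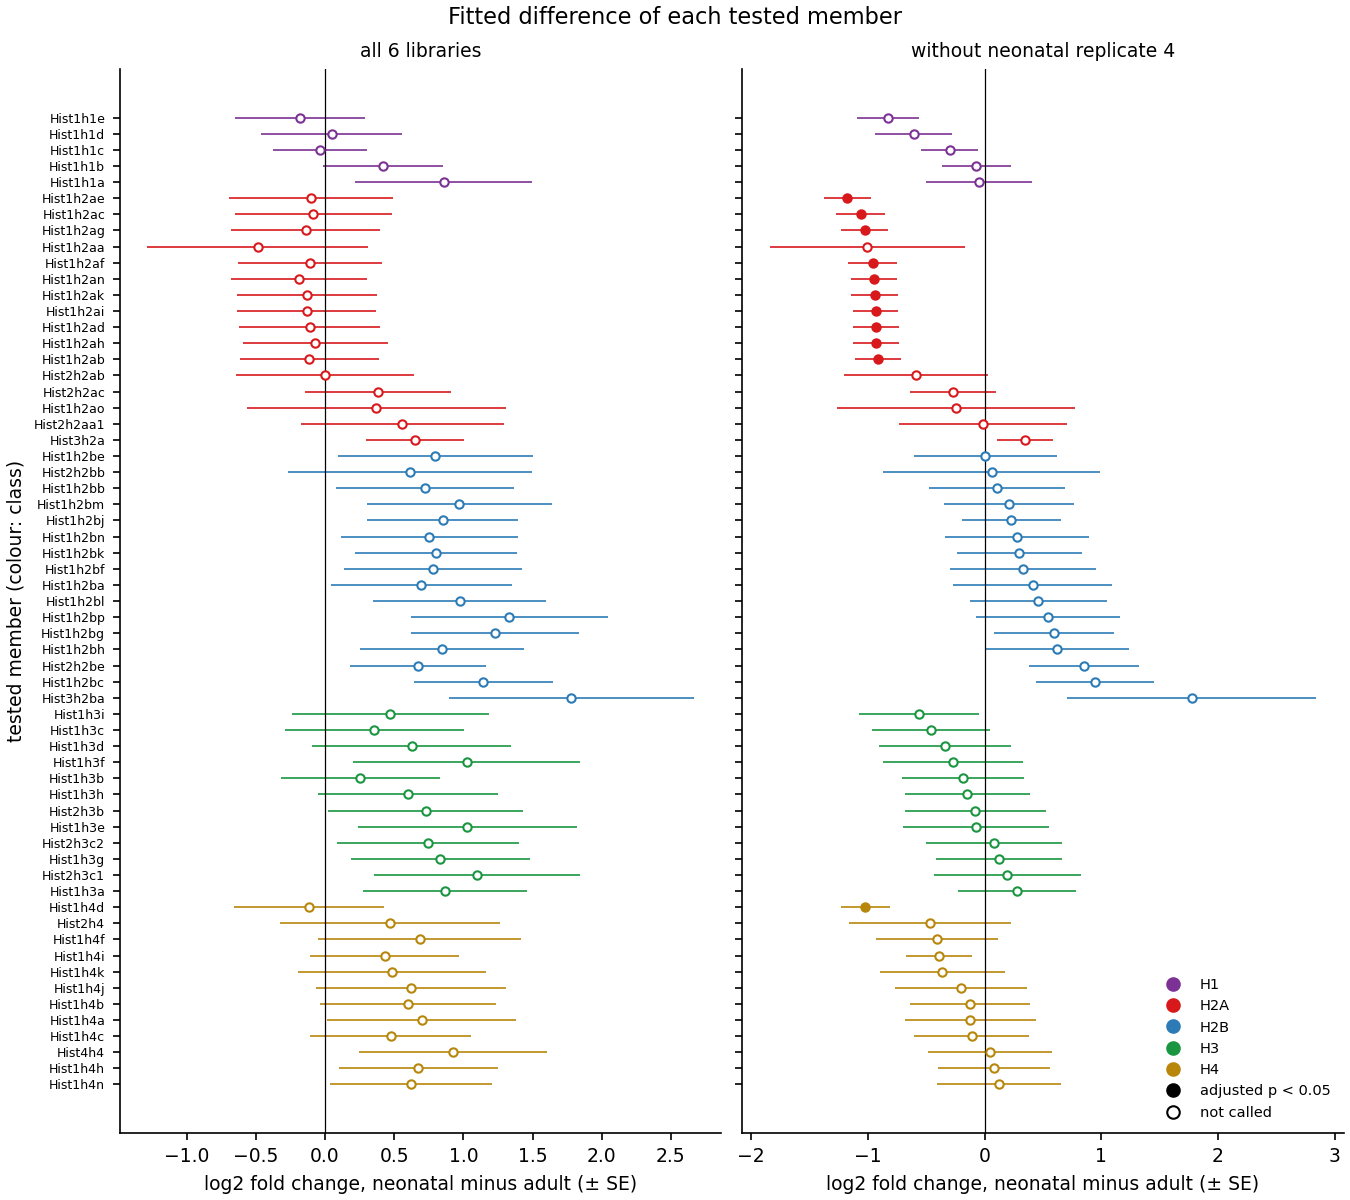
Log2 fold change, neonatal minus adult, of the 61 tested members with its approximate SE, from all 6 libraries (left) and without neonatal replicate 4 (right). Colours mark the class and filled points an edgeR adjusted p under 0.05; the 11 filled points are 10 H2A genes and Hist1h4d, all at or below -0.91, and all 16 H2B genes lie above 0 in both panels.

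H2A and H2B pair as a dimer in the nucleosome. Among H2A members the highest level per length was that of Hist1h2ag (chr13:22042477-22042949, minus strand, mm10, a single exon), with a mean of 1003 CPM per kb of exon over the 6 libraries. Hist1h2ag had 499, 531 and 460 CPM in the adult libraries and 872, 206 and 278 CPM in neonatal replicates 4, 7 and 8. Neonatal replicates 7 and 8 were below every adult library, and neonatal replicate 4 was above every one. The log2 fold change of Hist1h2ag was -0.14 ± 0.54 (SE) with all 6 libraries (edgeR adjusted p = 0.954) and -1.03 ± 0.20 without neonatal replicate 4 (edgeR adjusted p = 0.0450).

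Hist1h2ae had 267, 299 and 231 CPM in the adult libraries and 512, 106 and 127 CPM in the neonatal libraries. Its fall without neonatal replicate 4 was the largest of the called members, -1.18 ± 0.20 (edgeR adjusted p = 0.0389). Hist1h2ac, whose annotated exon runs well past its coding sequence, had 315, 344 and 286 CPM against 593, 126 and 173 CPM, with -1.06 ± 0.21 without neonatal replicate 4 (edgeR adjusted p = 0.0450). The 4 further H2A genes named by the rule, Hist1h2ad, Hist1h2ah, Hist1h2ai and Hist1h2an, lay between -0.95 and -0.93 in that fit.

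The 10 near-identical H2A genes held 96.0% to 98.3% of H2A counts in every library. Their shares within the group hardly moved between libraries. Hist1h2ag took 19.5% to 20.9% of the group's counts, and over the 10 genes the highest share was 1.04 to 1.27 times the lowest. A group of 12 near-identical H2B genes was less even, with a highest share 1.25 to 1.82 times the lowest.

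**Figure D3:**
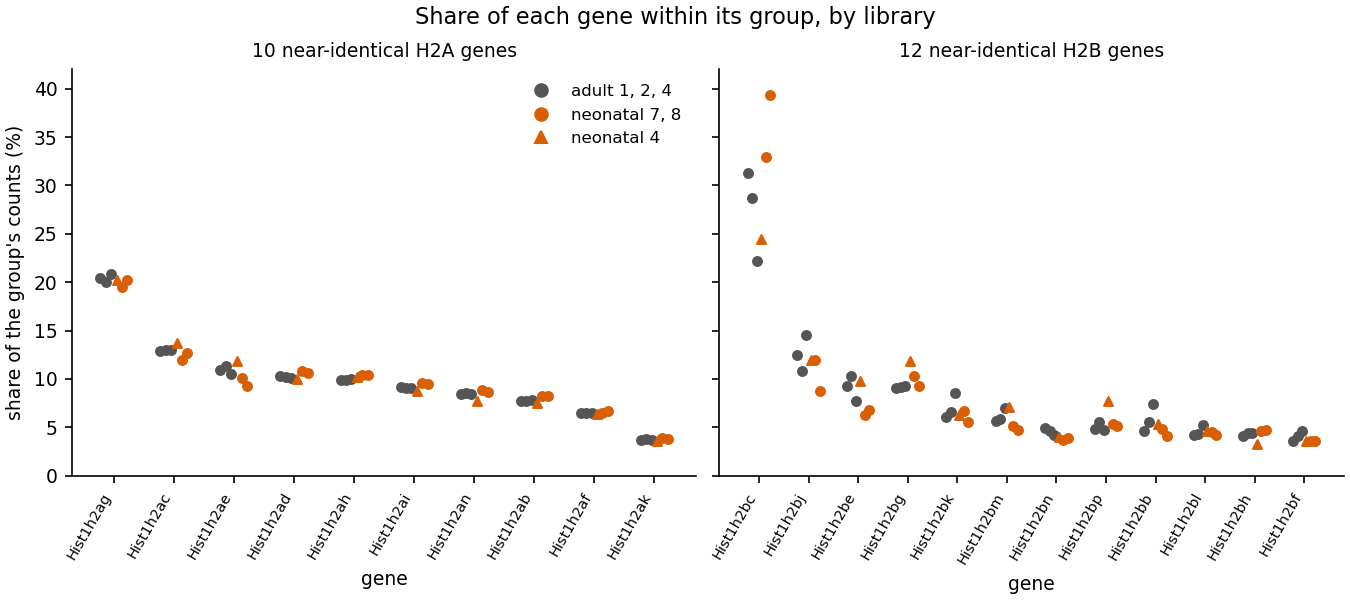
Share of each gene in the summed counts of its group of near-identical genes (y axis, percent), for 10 H2A genes (left) and 12 H2B genes (right), with 1 point per library. The points of an H2A gene nearly coincide across libraries, whereas Hist1h2bc ranges from 22.2% to 39.3% of the H2B group.

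As a sum, the H2A members outside that group did not show the same pattern. They had 41.9, 52.5 and 37.0 CPM in the adult and 97.1, 44.1 and 53.4 CPM in the neonatal libraries, and the groups overlapped with or without neonatal replicate 4. Most of this sum was Hist3h2a, with 28.1, 35.5 and 25.4 CPM in the adult and 65.1, 34.4 and 40.6 CPM in the neonatal libraries. The overlap therefore speaks mainly for that gene. Hist3h2a, which lies outside the rule for named genes and was chosen after its values were seen, was the only tested H2A gene with a positive log2 fold change without neonatal replicate 4 (0.35 ± 0.24, edgeR adjusted p = 0.373). Only 5.33% of its windows stood in another clustered gene. Hist1h2aa, known from testis, was near the floor at 0.37 to 1.20 CPM.

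H2B members were positive in 16 of 16 tested genes in both fits, with median log2 fold changes of 0.82 with all libraries and 0.37 without neonatal replicate 4, and 0 were called in either. The lowest without neonatal replicate 4 was 0.0056, for Hist1h2be. By class median, 97.1% of H2B windows lay within 2 mismatches of another clustered gene, so these are not 16 separate results. Hist1h2bc, the highest H2B gene per length at 41.7 CPM per kb, had 14.9, 30.5 and 11.3 CPM in the adult libraries and 53.5, 23.0 and 49.2 CPM in the neonatal libraries. Adult replicate 2 lay among the neonatal values, and it was the highest adult library for all 17 H2B members with counts. The log2 fold change of Hist1h2bc was 1.14 ± 0.50 with all libraries (edgeR adjusted p = 0.427) and 0.95 ± 0.51 without neonatal replicate 4 (edgeR adjusted p = 0.260).

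Hist2h2be, which is known to make polyadenylated mRNA as well, had 3.43, 7.75 and 7.35 CPM in the adult libraries and 7.17, 12.6 and 9.60 CPM in neonatal replicates 4, 7 and 8. Hist2h2be and Hist3h2ba were the 2 members with counts in which neonatal replicate 4 was not the highest library. Hist3h2ba had 0.07, 0.22 and 0.20 CPM against 0.60, 0.30 and 0.83 CPM, all low. It and the pseudogene Hist3h2bb-ps (chosen after its values were seen) were the 2 members whose neonatal libraries all lay above all adult ones, where 7.67% of all genes tested did so. Both had only 2 counts in neonatal replicate 4, below its limit of 0.763 CPM, and Hist3h2bb-ps did not pass the filter on low counts. No member had all 3 neonatal libraries below the adult ones, beside 12.0% of all genes. Without neonatal replicate 4, 17 of the 63 members with counts lay lower without overlap, beside 25.6% of all genes, and 3 lay higher, beside 25.0%. The former is near the background share.

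H3 members were evenly low, from 3.44 to 12.6 CPM per kb. All 12 had positive log2 fold changes with 6 libraries (median 0.74), and 8 of 12 were negative without neonatal replicate 4 (median -0.11), so the sign rested on that library. They too share windows and are not 12 separate results. Hist1h3d had 2.93, 6.12 and 2.90 CPM in the adult and 12.9, 2.90 and 3.36 CPM in the neonatal libraries. Apart from neonatal replicate 4, its values overlapped.

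Among H4 genes Hist1h4d (chr13:23581602-23581913, plus strand, mm10) stood far above the rest, with 358 CPM per kb where Hist1h4i had 37.8 and Hist1h4c 19.1. It took 66.0% to 71.4% of H4 counts in the adult libraries and 52.1% to 57.9% in the neonatal libraries. Hist1h4d had 126, 126 and 95.7 CPM in adult replicates 1, 2 and 4 and 210, 52.3 and 61.1 CPM in neonatal replicates 4, 7 and 8, the same order of libraries as the H2A genes. Its log2 fold change without neonatal replicate 4 was -1.02 ± 0.21 (edgeR adjusted p = 0.0474). Unlike the H2A group it shares only 16.4% of windows exactly with other genes, and 78.6% within 2 mismatches. Hist1h4i had 16.3, 18.4 and 16.7 CPM against 44.5, 11.4 and 14.5 CPM, with -0.39 ± 0.28 in the same fit (edgeR adjusted p = 0.395).

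**Figure D4:**
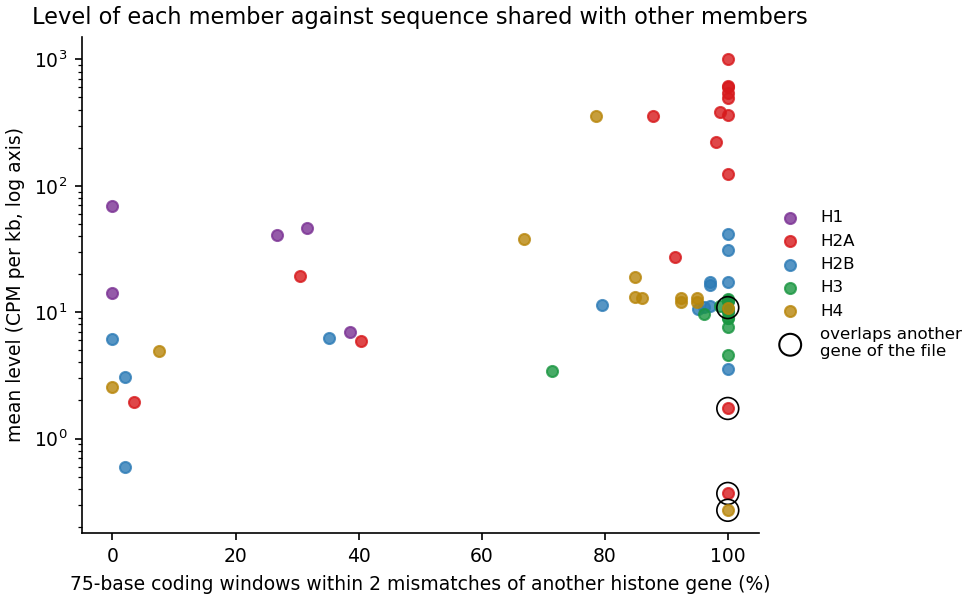
Mean level of each member over the 6 libraries (y axis, CPM per kb of exon, log axis) against the share of its 75-base coding windows that lie within 2 mismatches of another clustered histone gene (x axis). Colours mark the class and rings mark genes that overlap another gene of the file over a large part of their exon bases. Hist1h1e and Hist1h2be, with 89.2% and 91.7% of exon bases free of overlap, carry no ring. The near-identical H2A genes and Hist1h4d lie above 100 CPM per kb, and no other member does.

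H1 genes are the members whose sequences are most distinct, so their reads are least shared. Hist1h1b and Hist1h1a had no window in common with another member. Hist1h1b, the highest H1 gene per length at 69.8 CPM per kb, had 29.2, 54.0 and 36.8 CPM in the adult and 85.8, 39.2 and 36.5 CPM in the neonatal libraries, which overlapped. Hist1h1e had 114, 101 and 68.2 CPM against 146, 49.3 and 56.5 CPM, with -0.83 ± 0.26 without neonatal replicate 4 (edgeR adjusted p = 0.0989). DESeq2 called Hist1h1e lower without that library (log2 fold change -0.82, adjusted p = 0.0333). Hist1h1c, which also makes polyadenylated mRNA, had 64.7, 62.1 and 65.8 CPM against 85.2, 40.0 and 63.6 CPM, with a log2 fold change of -0.03 ± 0.34 with all libraries (edgeR adjusted p = 0.983) and -0.30 ± 0.24 without neonatal replicate 4 (edgeR adjusted p = 0.453). All 5 tested H1 genes were negative without neonatal replicate 4, and 0 were called by edgeR.

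Ratios within a library need no scaling between libraries. The ratio of summed H2A counts to summed H2B counts was 47.0, 22.3 and 35.9 in adult replicates 1, 2 and 4 and 18.6, 12.7 and 10.1 in neonatal replicates 4, 7 and 8. All 3 neonatal libraries were below all 3 adult ones, with means of 35.1 ± 12.4 and 13.8 ± 4.36 (SD, n = 3 each). H2A over H3 was 40.5 to 69.7 in the adult and 28.8 to 31.7 in the neonatal libraries. H2A over H4 was 14.1 to 15.9 in the adult libraries and 12.1 in each neonatal one. H1 over H2B was 2.09 to 4.44 against 1.27 to 1.69, and Hist1h4d over all other H4 genes was 1.94 to 2.50 against 1.09 to 1.37. In these 5 ratios the groups did not overlap. Among single genes tested, 7.67% had all neonatal libraries above all adult ones and 12.0% had all below. No such share was computed for ratios of sums. The ratios of H2A to H2B, H3 and H4 have the same H2A sum and are not separate results.

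Other ratios overlapped, some through neonatal replicate 4 alone. H2A over H1 was 10.6 to 11.7 in the adult and 7.50 to 11.6 in the neonatal libraries, and H3 over H2B was 0.550 to 0.674 against 0.348 to 0.646. In both, neonatal replicate 4 gave the upper value (11.6 and 0.646), and neonatal replicates 7 and 8 lay below every adult library. The 8 H2A members outside the near-identical group, set against H2B, gave 0.434 to 0.792 against 0.378 to 0.509, so without the near-identical genes the groups overlapped, with or without neonatal replicate 4. Most of that H2A sum was Hist3h2a, so this overlap speaks mainly for that gene. The ratios were not tested, since they are scores over chosen members, and several share a class.

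**Figure D5:**
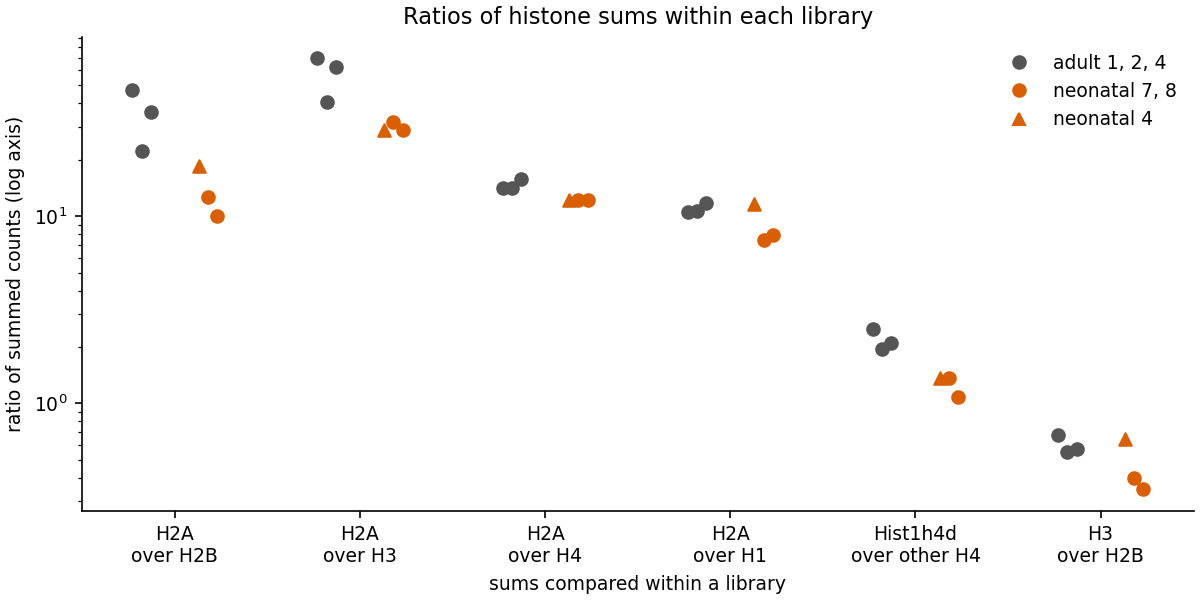
Ratios of summed counts within each library (y axis, log axis) for 6 pairs of histone sums (x axis), with adult libraries in grey and neonatal libraries in orange (the triangle is neonatal replicate 4). Neonatal points lie below all adult points for H2A over H2B, H3 and H4 and for Hist1h4d over other H4 genes, and overlap them for H2A over H1 and H3 over H2B.

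Many H2A and H2B genes lie back to back and start from a shared stretch of DNA. In 11 such pairs the starts were 172 to 334 bases apart, and 8 pairs held a near-identical H2A gene. In those 8 pairs the H2A gene was 2.94 (Hist1h2ac and Hist1h2bc) to 60.1 (Hist1h2ad and Hist1h2bf) times its H2B neighbour per kb over the 6 libraries. In the testis pair, Hist1h2aa over Hist1h2ba, the ratio was 0.311, and its groups overlapped. For Hist1h2ag over Hist1h2bj the ratio was 67.4, 37.1 and 50.2 in the adult and 26.7, 19.9 and 20.4 in the neonatal libraries. The ratio was lower in every neonatal library than in every adult one for 8 of the 8 pairs. Of the other pairs, Hist3h2a over the pseudogene Hist3h2bb-ps was also lower in every neonatal library, but Hist3h2bb-ps had only 1 to 10 counts per library. Hist2h2ac over Hist2h2be overlapped. Of 868 divergent neighbour pairs in the file with starts within 1000 bases, 13.0% had groups without overlap in either direction. The 8 pairs share reads and are not separate observations.

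The stretch between Hist1h2ag and Hist1h2bj is shown because the RNAs of this pair differed so widely in level. It is the 250 bases before the RefSeq start of Hist1h2ag (chr13:22042950-22043199, minus strand, GRCm38.p6), with CCAAT boxes, read on either strand as CCAAT or ATTGG, in capitals.
Hist1h2ag upstream: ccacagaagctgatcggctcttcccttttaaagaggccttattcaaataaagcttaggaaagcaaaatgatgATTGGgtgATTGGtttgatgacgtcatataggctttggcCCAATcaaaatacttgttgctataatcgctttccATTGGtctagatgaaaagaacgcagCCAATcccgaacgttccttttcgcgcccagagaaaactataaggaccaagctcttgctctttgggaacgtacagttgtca

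In RefSeq promoters of the same length, found for 61 members, CCAAT on either strand stood in 50 members (82.0%) and in 33.8% of all 32851 promoters. It was in 17 of 17 H2A, 16 of 16 H2B and 6 of 6 H1 promoters, 8 of 10 H3 and 3 of 12 H4 promoters. The octamer ATTTGCAT, a binding sequence of POU factors such as Oct1, was in 13 members (21.3%) and in 1.6% of all promoters, and all 13 were H2A (7 of 17) or H2B (6 of 16) genes. TATAAA was in 29 members (47.5%) and 12.4% of all promoters. These are matches of letters and not measured binding. Back-to-back H2A and H2B genes share much of this stretch, so the same match can count for both genes of a pair. The H2A and H2B counts are therefore not separate results.

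Genes that act on histone mRNA were looked at as listed groups. Of 18 genes for 3′ end processing and decay of histone mRNA, 0 were called with 6 libraries. Without neonatal replicate 4 only Cpsf1, the large subunit of the cleavage and polyadenylation specificity factor, was called, as higher (0.80 ± 0.16, edgeR adjusted p = 0.0440). Cpsf1 had 112, 115 and 115 CPM in the adult libraries and 35.0, 206 and 190 CPM in neonatal replicates 4, 7 and 8, so neonatal replicate 4 went the other way. With length offsets and without neonatal replicate 4 the Cpsf1 call was lost (0.72, edgeR adjusted p = 0.0546). Zcchc11 had 2.31, 0.79 and 2.10 CPM in the adult and 10.5, 5.98 and 29.1 CPM in the neonatal libraries, without overlap. It was at 3.35 ± 0.78 without neonatal replicate 4 and was not called (edgeR adjusted p = 0.0544). In that fit 9 of the 18 genes were above 0. Slbp had 212, 286 and 379 CPM against 509, 236 and 233 CPM, which overlapped, with edgeR adjusted p-values of 0.930 with all libraries and 0.472 without neonatal replicate 4. The list's median log2 fold change was 0.10 with 6 libraries and 0.02 without neonatal replicate 4, near that of all genes.

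Of 14 genes of the histone locus body and of histone gene transcription, 0 were called in either fit. Their median log2 fold change was -0.04 with 6 libraries, with 7 of 14 above 0. Without neonatal replicate 4 it was -0.01, with 6 of 14 above 0. Npat, the coactivator that links cyclin E to histone gene transcription, had 49.1, 50.1 and 72.1 CPM in the adult and 27.5, 45.1 and 43.2 CPM in the neonatal libraries, without overlap (-0.56 ± 0.33, edgeR adjusted p = 0.575 with all libraries and 0.359 without neonatal replicate 4). Casp8ap2, a further locus body component, was also lower in all neonatal libraries, at 72.8, 73.6 and 96.2 against 56.5, 43.2 and 40.7 CPM (-0.79 ± 0.30, edgeR adjusted p = 0.343 with all libraries and 0.0521 without neonatal replicate 4). Pou2f1 was lower in all neonatal libraries as well, whereas Ccne1, Cdk2 and Yy1 were higher in all of them. These genes were chosen after their values were seen. Ccne1 had 29.0, 29.1 and 38.2 CPM in the adult and 49.6, 45.5 and 48.9 CPM in the neonatal libraries.

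None of 25 S phase genes was called in either fit. Their summed level was 4020, 4627 and 7144 CPM in the adult and 6458, 5081 and 5253 CPM in the neonatal libraries, and the groups overlapped. With 6 libraries their median log2 fold change was 0.15, with 18 of 25 above 0. Without neonatal replicate 4 it was -0.18, with 9 of 25 above 0, so the sign of the median rested on that library. Tyms, which makes thymidylate, had 183, 170 and 266 CPM in the adult and 297, 108 and 112 CPM in the neonatal libraries, the same placing of neonatal replicates as for H2A (-0.89 ± 0.24 without neonatal replicate 4, edgeR adjusted p = 0.0727). Rfc3, a subunit of the clamp loader, was at -0.86 ± 0.23 in that fit (edgeR adjusted p = 0.0724). Other genes of the list went the other way there, such as Uhrf1 at 0.82 ± 0.33 and Mcm2 at 0.74 ± 0.37. Both were chosen after their values were seen. In bulk RNA, a difference in the share of cells in S phase and one in histone RNA per cell cannot be told apart. The part of S phase in the histone values was not tested.

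Of 11 listed histone variants that have polyadenylated mRNA and stand outside the clustered genes, 0 were called with 6 libraries. The abundant variants H2afz and H3f3a, chosen after their values were seen, placed the libraries as the H2A genes did. H2afz had 2613, 2323 and 2387 CPM against 4192, 1480 and 1611 CPM (-0.65 ± 0.17 without neonatal replicate 4, edgeR adjusted p = 0.0701), and H3f3a was at -0.64 ± 0.23 in that fit (edgeR adjusted p = 0.129). Without neonatal replicate 4, H2afy, which encodes macroH2A1, rose by 0.94 ± 0.17 (edgeR adjusted p = 0.0420). H2afy had 628, 750 and 641 CPM in the adult and 1364, 1231 and 1327 CPM in the neonatal libraries, so all neonatal libraries were higher, neonatal replicate 4 included. The linker variant H1fx rose by 3.59 ± 0.75 (edgeR adjusted p = 0.0474) from 0.31 to 1.16 CPM in the adult libraries to 4.80 and 11.5 CPM in neonatal replicates 7 and 8, with 0.60 CPM in neonatal replicate 4. Of 20 histone chaperones, 0 were called with 6 libraries, and 14 of 20 were above 0 (median 0.20). Without neonatal replicate 4, 10 of 20 were above 0 (median -0.01), with 1 called lower and 0 higher. Without neonatal replicate 4, Atrx, a chromatin remodeller that works with the H3.3 chaperone Daxx, fell (-1.32 ± 0.22, edgeR adjusted p = 0.0377), at 395, 392 and 282 CPM against 200, 150 and 133 CPM. With all libraries Atrx was at -1.15 ± 0.31 (edgeR adjusted p = 0.198). Daxx and Ipo4 went the other way without neonatal replicate 4 and were not called. Daxx was at 1.15 ± 0.27 (edgeR adjusted p = 0.0539) and Ipo4 at 1.61 ± 0.35 (edgeR adjusted p = 0.0503). For both, neonatal replicate 4 lay below every adult library. With length offsets and without neonatal replicate 4 the calls of H2afy, H1fx and Atrx were lost (edgeR adjusted p = 0.0508, 0.0504 and 0.0513).

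RNAs outside the histone family that lack polyA tails were also listed. Of 18, 9 were tested and 0 called with 6 libraries. Rn45s, the ribosomal RNA precursor, had 1463, 1219 and 1164 CPM in the adult and 1870, 3549 and 3536 CPM in the neonatal libraries, and rose without neonatal replicate 4 (1.48 ± 0.18, edgeR adjusted p = 0.0324). Others of the list lay the other way. Rpph1, the RNA of ribonuclease P, had 2.78, 2.19 and 3.71 CPM against 6.57, 1.01 and 0.46 CPM (-1.97 ± 0.70 without neonatal replicate 4, edgeR adjusted p = 0.123), and 4 of the 9 were above 0 in that fit. The part of polyA selection in the histone values was not tested.

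Markers of other cell types and stages were summed by list, and with 6 libraries 0 were called in any list. Without neonatal replicate 4, 1 of 8 neutrophil markers was called lower and 2 of 6 stem and early progenitor markers higher. The summed level of 8 maturing neutrophil markers was 1868 to 14978 CPM in the adult libraries, highest in adult replicate 2, and 179 to 283 CPM in the neonatal libraries. That of 6 stem and early progenitor markers was 578 to 666 CPM against 934 to 2508 CPM, and that of the macrophage list 134 to 655 CPM against 64.2 to 202 CPM. Megakaryocyte markers summed to 0.55 to 4.27 CPM in the adult and 0.60 to 45.9 CPM in the neonatal libraries and B cell markers to 28.5 to 69.4 against 72.0 to 147 CPM, while T cell and erythroid markers were at or below 1.88 CPM, with 3 T cell, 3 B cell and 2 erythroid markers at 0 in all libraries. The part of these markers in the histone values was not tested.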

How the data were processed

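Counts were the authors' raw reads per gene, deposited as 1 table. Per the file headers they were made with featureCounts 1.5.1 counting primary alignments, with no strand option, on a UCSC annotation of mm10. Per the labels' protocols, RNA was polyA-selected and read as 75-base single ends from libraries that carry no strand information. Trimmomatic, Bowtie, TopHat and DESeq2 stand in the submitters' processing notes without versions.

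CPM were computed here on TMM effective sizes. Neonatal and adult libraries were compared on all genes with edgeR 4.0.16 in R 4.3.3 (filterByExpr with minimum count 10, TMM, robust quasi-likelihood F test, Benjamini-Hochberg adjustment over all genes tested, threshold 0.05). The SE is the log2 fold change divided by the square root of F, an approximation. Alternatives were DESeq2 1.42.0, limma voom 3.58.1, other scalings and filters, thinning, and leaving libraries out. Exon-length offsets and further fits without neonatal replicate 4 were chosen after seeing the data.

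Named were, per class, the 4 members with the highest CPM per kb, the 4 called members with the smallest adjusted p without neonatal replicate 4, the 3 tested members at each end of the 6-library log2 fold changes, members with known polyA or testis forms, Slbp, Npat, Rn45s, Rmrp, Rpph1 and 3 genes per list with the smallest adjusted p without neonatal replicate 4. Not all of these are described, and 1 is not reported here. Members and lists were chosen with earlier results of these data known. Overlapping genes were left as counted.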

Additional observations from a re-analysis of the deposited data

How the results depend on the processing

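No paired analysis was possible because the groups share only replicate number 4. With edgeR and 6 libraries 7 genes and 0 members were called; DESeq2 called 772 genes and the thinned libraries 12, both with 0 members. Leaving out 1 library gave 1 to 828 genes and 0 to 11 members, and all 11 came without neonatal replicate 4. Without that library DESeq2 called 3443 genes and 12 members, limma voom 928 and 11, no TMM 845 and 11, and length offsets 459 and 1. Leaving out a further library gave 5 to 1267 genes (9 without adult replicate 1, 19 without adult replicate 2, 22 without neonatal replicate 7, 5 without neonatal replicate 8), with 0 members except 12 without adult replicate 4, where 1267 genes were called. The cause of these changes was not tested, and each such fit also has fewer libraries. The log2 ratio of group means of H2A was -0.10, and -0.97 to 0.24 over libraries left out; H3 was 0.78 (-0.14 to 1.15), H4 0.17 (-0.71 to 0.50), H1 0.06 (-0.48 to 0.31) and H2B 0.98 (0.53 to 1.43), where each lowest value is that without neonatal replicate 4. For H2A over H2B it was -1.35 (-1.63 to -1.08), -1.38 after thinning and -0.49 with the near-identical H2A genes left out. The H2A sum behind that last value was mostly Hist3h2a. Of the values of named genes under these alternatives 984 stayed on their side of the threshold and 89 became called. Depth limits what can be seen in neonatal replicate 4 to levels above 0.763 CPM.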
